A study of Homo sapiens with 4 samples.

Results

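Transcripts of 39 genes of homologous recombination, Fanconi anaemia repair, mismatch repair and alkyl-DNA repair were followed in U87, an established human glioblastoma line, by RNA-seq. The genes were chosen by name, and all 39 were present in both deposited tables, among 18899 usable symbols of the wild-type (WT) table and 57169 of the shRNA table. WT cells were sequenced in normoxia and in hypoxia (1% O2). Cells carrying a scrambled shRNA (shScr) or an shRNA directed at ALKBH5 (shALKBH5), the enzyme that strips the m6A methyl group from RNA, were sequenced in hypoxia alone. Each of these 4 groups held 1 library, so no difference below has a replicate check and no p-value is given. The shRNA cells and the WT cells sit in separate tables that were normalised apart, and no normoxic shRNA library was analysed here.

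Homologous recombination mends breaks that cut both DNA strands by copying the sister chromatid. Nucleases first trim the ends, BRCA proteins then load a recombinase filament on the exposed strand, and its paralogs and helpers drive the strand exchange. The Fanconi core complex marks FANCD2 and FANCI at interstrand crosslinks, mismatch repair corrects replication errors, and MGMT lifts methyl groups off guanine, the lesion left by the glioma drug temozolomide. Many of these genes are transcribed most in S phase, under E2F factors, so that their level in a culture also follows how many cells are replicating. In bulk RNA, fewer replicating cells and less transcript per cell cannot be told apart.

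Values are FPKM, fragments per kilobase of gene, scaled for library size. A log2 change below is taken on FPKM with 1 FPKM added, among genes with a mean of at least 1 FPKM over the 2 libraries compared. The added constant understates the change of scarce genes, so plain ratios of FPKM stand beside it. Whole reads could be recovered from the shRNA table, 17859370 for shScr and 16780154 for shALKBH5. There, a log2 ratio without a constant is given with its 95% exact (Clopper-Pearson) binomial interval, which covers counting error between these 2 libraries and nothing else; reads amplified by PCR without molecular identifiers are not independent molecules. The WT table holds no reads or lengths, so its depth is unknown. ALKBH5 stood at 186 FPKM with shScr and 113 with shALKBH5, a log2 ratio of -0.72. In WT cells, 9 of the 10 hypoxia reference genes passed the filter and all 9 were at least 2-fold higher in hypoxia. The mesenchymal genes VIM and CD44 were abundant in all 4 libraries. TNC, a matrix gene of glioma, was abundant as well, from 91.8 to 131 FPKM, and NES, a progenitor marker, lay between 2.93 and 12.4 FPKM. GFAP, SOX2 and S100B, glial markers, stayed at or below 0.23 FPKM throughout. OLIG2, another glial marker, was at 1.35 and 0.27 FPKM in normoxic and hypoxic WT cells and at 0 and 0.11 FPKM with shScr and shALKBH5. The epithelial markers EPCAM, CDH1 and KRT18 stayed at or below 0.28 FPKM. CD68, a macrophage marker, was listed at 290 and 255 FPKM in the WT libraries against 0.15 and 0 with the shRNAs. The part in the results of this contrast between the separately normalised tables was not tested. The other immune markers, PTPRC and CD14, stayed under 1 FPKM in all 4 libraries. So did the endothelial markers CDH5 and VWF and the neuron markers RBFOX3, SYT1 and MAP2. PECAM1, a further endothelial marker, was at least 2-fold higher in WT hypoxia, with a log2 change of 1.05.

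In hypoxia the repair genes were lower almost throughout. Of the 38 detected genes, 37 had a lower FPKM in WT hypoxia than in WT normoxia, and FANCC alone was higher. Most of the table was lower too, 10501 of 16551 detected genes. The median member level went from 7.34 to 3.74 FPKM. The filter left 37 members, of which 15 were lower by the 2-fold rule and 0 higher. Over all 11050 genes that passed it, 14.7% met the lower and 7.41% the higher rule. The median log2 change was -0.78 in the members past the filter and -0.35 in all genes, so the whole table was shifted the same way. After subtraction of that median gene, 33 of 38 members were still below 0, and 3 passed the 2-fold rule, namely ATR, FANCE and PALB2. On that centred scale 5.73% of all genes were 2-fold lower and 11.9% higher. Without the added constant, a rule chosen after the values were seen, 19 of the 37 were at least 2-fold lower, against 20.6% of all genes, and 0 were higher, against 8.93%. Among the 3107 genes with a mean WT level between 2.99 and 9.19 FPKM, the middle range of the members, the median log2 change was -0.45 and 18.0% were at least 2-fold lower.

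**Figure D1:**
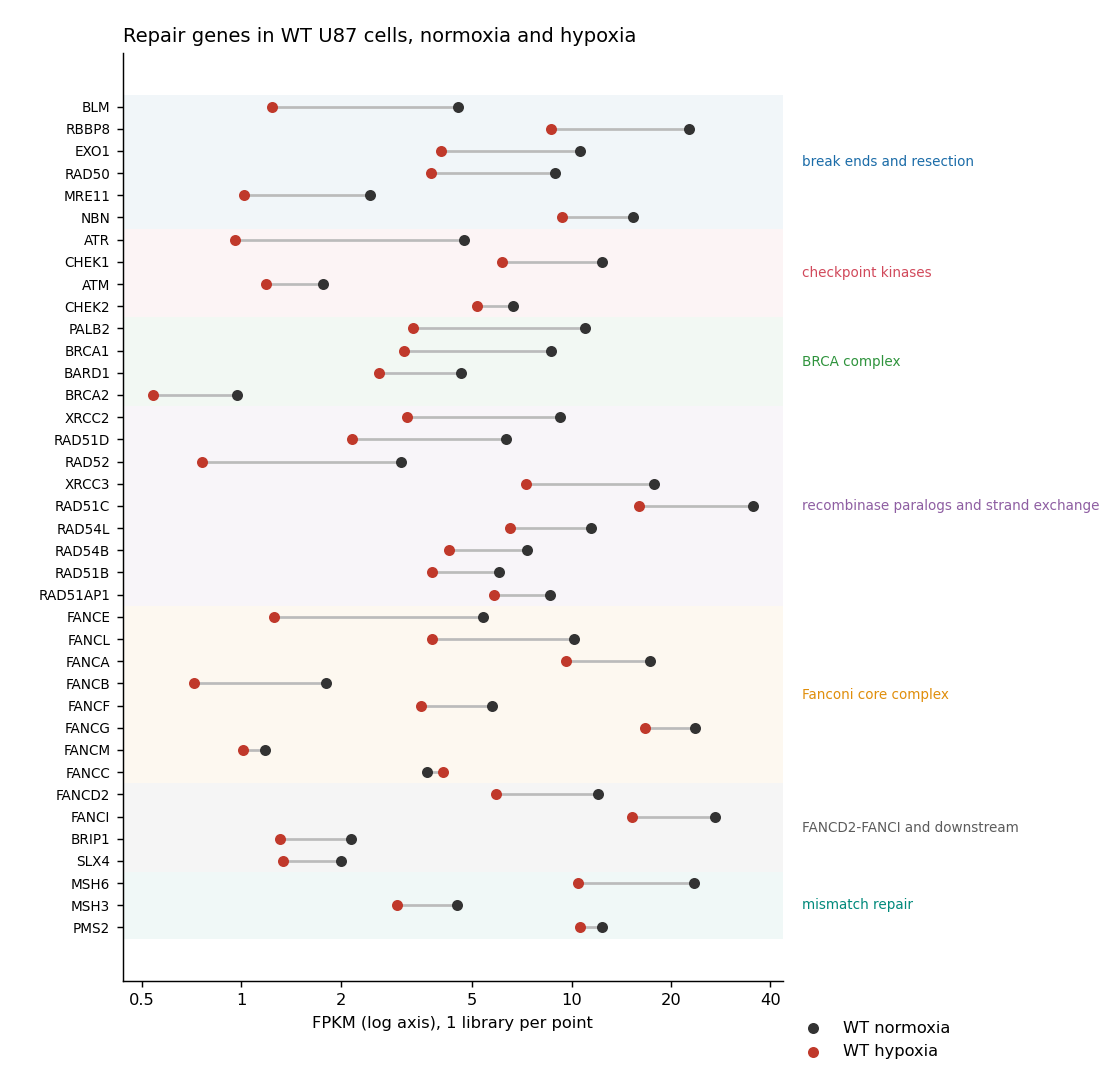
FPKM on a log axis of the 38 detected repair genes in WT normoxia (black) and WT hypoxia (red), 1 library per point, grouped by role. The hypoxia point lies left of the normoxia point for every gene but FANCC, and the longest gap is that of ATR, from 4.73 to 0.96 FPKM.

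With shALKBH5 the same genes went to both sides, at levels where reads were few. In the shRNA table, 19 of the 38 detected members were under 1 FPKM in both libraries, and 18 passed the filter. None of these 18 was at least 2-fold higher or lower, where 1.76% of 10925 genes were higher and 3.0% lower. By plain FPKM, 27 members were higher with shALKBH5 and 11 lower. Over all 23451 detected genes, 12291 were higher and 11160 lower. Of the 36 members with at least 50 reads over both libraries, the counting interval lay wholly above 0 in 15, wholly below 0 in 2, and spanned 0 in 19. Over all 12394 genes with as many reads, 33.2% lay above and 35.2% below. Without the added constant, 4 of the 36 had at least 2-fold more FPKM with shALKBH5, namely BLM, BARD1, MRE11 and RBBP8, and 0 had 2-fold less. This rule without a constant, chosen after the values were seen, was passed by 5.51% of all genes upward and 4.71% downward. Among 819 protein-coding genes with reads and exon length in the members' middle range, 11.2% passed it upward and 3.79% downward.

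The median log2 ratio of those 36 members was 0.30, against 0.00 in all genes with at least 50 reads. Over all genes, reads and gene length moved with the shALKBH5 log2 ratio. Members held a median of 198.5 reads and 6357 bases of exon, and protein-coding genes with at least 50 reads a median of 797 reads and 5247 bases. Genes with exons under 2500 bases had a median log2 ratio of -0.29, and those of 7000 bases or more 0.15. Among the 38 detected members themselves, Spearman's rho between the log2 ratio and exon length was 0.01, against 0.21 over 11301 protein-coding genes, both as descriptions of points that share their libraries. Among 819 genes inside the members' middle range of both reads (105 to 275.5) and exon length (4265.75 to 8560.25 bases), the median was 0.29, with 39.7% of intervals above 0, 12.9% below 0, and 11.2% at least 2-fold higher. The members' 15 of 36 above 0 lay near that 39.7%, and their 2 of 36 below 0 lay under that 12.9%. The direction also rests on the scale. Relative to all recovered reads, the shALKBH5 library moved up by 0.18 on the log2 scale, and 32 of 38 members were higher. That scale raises every gene alike, and the share of all genes higher on it was not counted. Every interval moves with the scale, and the interval counts given here hold on the deposited FPKM scale alone.

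**Figure D2:**
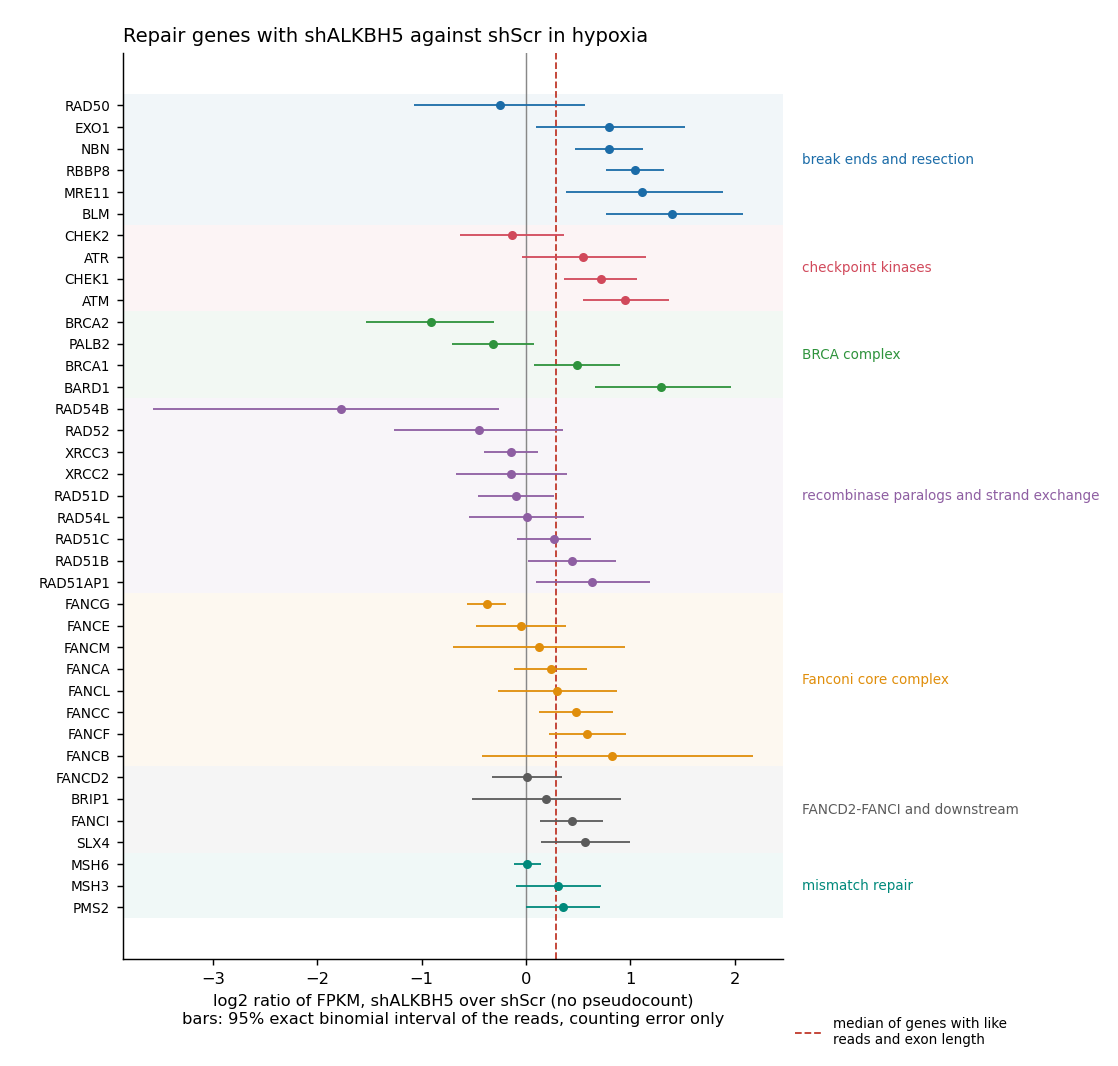
Log2 ratio of FPKM with shALKBH5 over shScr for the 38 detected repair genes, with the 95% exact binomial interval of the reads as bars, 1 library per group. Among the genes of broken ends and resection, the intervals of RBBP8, MRE11, BLM, NBN and EXO1 lie above 0. RAD50, of the same group, lies at -0.25 with an interval that spans 0. The intervals of BRCA2, RAD54B and FANCG lie below 0. The dashed line at 0.29 marks the median of genes of like reads and exon length.

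**Figure D3:**
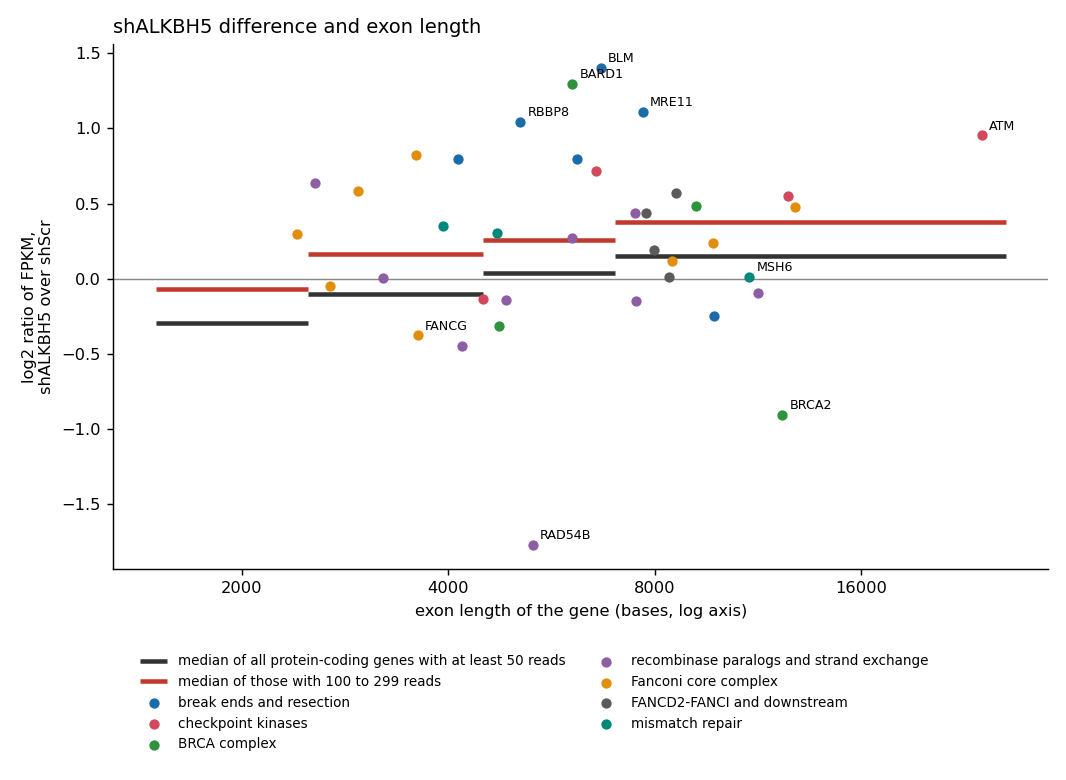
Log2 ratio of FPKM with shALKBH5 over shScr (vertical) against exon length in bases (log axis), 1 point per repair gene coloured by role. Black and red bars give the median of protein-coding genes in each length class, with at least 50 reads and with at least 100 but under 300 reads, and the black bars climb from -0.29 in the shortest class to 0.15 in the longest.

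The 6 genes that recognise and trim broken ends were all lower in hypoxia, with a median log2 change of -1.14 and 4 at least 2-fold lower, where 14.7% of all genes were. With shALKBH5, 5 of the 6 had a counting interval above 0, against 33.2% of all genes and 39.7% of those in the members' middle range of reads and length. RBBP8 (ENSG00000101773, GRCh38 chromosome 18, 22798261 to 23026488), the CtIP gene whose product starts resection, stood at 22.7 FPKM in normoxic and 8.66 in hypoxic WT cells, with a log2 change of -1.30. It then read 2.10 FPKM with shScr and 4.34 with shALKBH5, from 159 and 350 reads, a ratio of 2.06 with an interval from 1.71 to 2.51. RBBP8 was the most deeply read of the resection genes. BLM (ENSG00000197299, chromosome 15, 90717327 to 90816165), a helicase that unwinds ends and dissolves joint molecules, went from 4.53 to 1.24 FPKM in WT cells, a log2 change of -1.30. With the shRNAs it stood at 0.282 and 0.747 FPKM, from 28 and 79 reads, and the ratio of 2.65 had an interval from 1.70 to 4.23. EXO1, the nuclease of long-range resection that also serves mismatch repair, was at 10.6 and 4.01 FPKM in WT normoxia and hypoxia (log2 change -1.22). Its shRNA levels were 0.439 and 0.762 FPKM, with an interval of the ratio from 1.07 to 2.88.

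MRE11, RAD50 and NBN encode the complex that first holds a broken end. MRE11, its nuclease, was at 2.46 and 1.02 FPKM in normoxic and hypoxic WT cells and 0.201 and 0.435 FPKM with shScr and shALKBH5. Its ratio with shALKBH5 was 2.16, from 23 and 53 reads, with an interval from 1.30 to 3.69. NBN, the subunit that calls ATM to the break, was the most abundant of the 3 in WT cells, at 15.4 FPKM in normoxia and 9.36 in hypoxia. NBN had 1.34 FPKM with shScr and 2.34 with shALKBH5, a ratio of 1.74 with an interval from 1.39 to 2.18. RAD50, the ATPase that bridges ends, had 8.89 and 3.74 FPKM in WT normoxia and hypoxia, a log2 change of -1.06, but only 29 and 26 reads with shScr and shALKBH5. The annotated gene AC116366.3 covers 79.7% of the RAD50 exon bases on the same strand and was listed at 0 reads in both libraries. No source used here says how reads falling in both genes were counted, so the RAD50 level in the shRNA table is uncertain. The 3 subunits were thus lower together in hypoxia, with log2 changes of -0.78, -1.06 and -0.66 in the order MRE11, RAD50, NBN.

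Among the checkpoint kinases, ATR showed the largest difference of all 39 genes in hypoxia. ATR (ENSG00000175054, GRCh38 chromosome 3, 142449235 to 142578826), the kinase that answers stalled replication forks, was at 4.73 FPKM in normoxic and 0.96 in hypoxic WT cells. This is 0.203 of the normoxia level, a log2 change of -1.55, and -1.20 relative to the median gene. With shScr it stood at 0.221 FPKM and with shALKBH5 at 0.323, from 41 and 64 reads, and the interval of the log2 ratio, -0.04 to 1.15, spanned 0. ATM, the kinase that answers broken ends, was at 1.77, 1.19, 0.213 and 0.413 FPKM in WT normoxia, WT hypoxia, shScr and shALKBH5. Its hypoxia change was -0.34, and 0.01 relative to the median gene, whereas 76 and 157 reads gave a shALKBH5 ratio of 1.94, with an interval from 1.46 to 2.58. CHEK1, the kinase downstream of ATR, had 12.4 and 6.15 FPKM in WT normoxia and hypoxia, a ratio of 0.498, and 1.12 and 1.84 FPKM with shScr and shALKBH5. The CHEK1 interval with shALKBH5 ran from 1.29 to 2.10 on the ratio scale. CHEK2, the kinase downstream of ATM, was among the least different in hypoxia, at 6.67 and 5.17 FPKM, and had 1.08 and 0.983 FPKM with the shRNAs, with an interval that spanned 0. The ATR and CHEK1 pair thus differed more in hypoxia than the ATM and CHEK2 pair, whose changes of -0.34 and -0.31 lay near that of the median gene.

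The BRCA genes were all lower in hypoxia and split with shALKBH5. BRCA1 (ENSG00000012048, GRCh38 chromosome 17, 43044295 to 43170245), a ubiquitin ligase that directs repair to recombination, stood at 8.66 FPKM in normoxic and 3.11 in hypoxic WT cells, a log2 change of -1.23. With shScr and shALKBH5 it was at 0.608 and 0.852 FPKM, a ratio of 1.40 with an interval from 1.05 to 1.87. BARD1, the partner that BRCA1 needs for stability, was at 4.64 and 2.62 FPKM in WT normoxia and hypoxia (log2 change -0.64). BARD1 then had 0.322 FPKM with shScr and 0.790 with shALKBH5, from 29 and 76 reads, a ratio of 2.46 with an interval from 1.58 to 3.91. PALB2, which bridges BRCA1 and BRCA2, went from 11.01 to 3.31 FPKM in hypoxia (log2 change -1.48). It had 1.70 FPKM with shScr and 1.37 with shALKBH5, and the interval of that ratio, 0.612 to 1.06, spanned 1. BRCA2, which loads the recombinase, was at 0.97 and 0.54 FPKM in the WT libraries, under the filter. It had 0.356 FPKM with shScr and 0.190 with shALKBH5, from 65 and 37 reads, a ratio of 0.534 with an interval from 0.347 to 0.811. Within these 4 genes, BRCA1 and BARD1 thus lay above 0 with shALKBH5 and BRCA2 below 0, and all of them had 223 reads or fewer over both libraries.

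Genes for the recombinase paralogs and strand-exchange helpers were lower in hypoxia in 9 of 9 cases, with a median log2 change of -1.10 and 5 at least 2-fold lower. RAD51C, a paralog shared by 2 complexes, was the most abundant member in WT normoxia at 35.3 FPKM and stood at 15.99 in WT hypoxia (log2 change -1.10). It had 1.32 FPKM with shScr and 1.59 with shALKBH5. XRCC2 was at 9.23, 3.17, 0.873 and 0.793 FPKM in WT normoxia, WT hypoxia, shScr and shALKBH5, with a hypoxia change of -1.29. Its partner paralog RAD51D was at 6.33, 2.16, 0.768 and 0.720 FPKM in the same order, with a hypoxia change of -1.21. XRCC3, the paralog that pairs with RAD51C, was at 17.7 and 7.28 FPKM in the WT libraries (log2 change -1.18) and at 2.26 and 2.04 FPKM with the shRNAs. XRCC3 shares 76.7% of its exon bases with KLC1 on the opposite strand, which held 1761 and 1726 reads, and without stated use of strand its reads cannot be assigned with confidence. RAD52, an annealing factor, went from 3.04 to 0.76 FPKM in WT cells (log2 change -1.20) and had 0.514 and 0.376 FPKM with shScr and shALKBH5. The intervals of these 5 genes with shALKBH5 all spanned 0.

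The other 4 genes of strand exchange were under the 2-fold rule in hypoxia. RAD51B, the remaining paralog, was at 6.04, 3.77, 0.729 and 0.987 FPKM in WT normoxia, WT hypoxia, shScr and shALKBH5, with a shALKBH5 interval from 1.01 to 1.82. RAD51AP1, which stimulates joint formation, was at 8.61, 5.83, 1.24 and 1.92 FPKM in that order, with an interval from 1.07 to 2.28. RAD54L, a motor protein that remodels the joint, was at 11.5, 6.52, 1.17 and 1.18 FPKM, a shALKBH5 ratio of 1.00. Of its exon bases, 25.1% overlap LRRC41 on the other strand, with 1718 and 1414 reads, which leaves its own 56 and 60 reads uncertain. RAD54B, its relative, was at 7.34 and 4.26 FPKM in the WT libraries but had 16 and 5 reads with the shRNAs. The RAD54B ratio of 0.293 had an interval from 0.084 to 0.837, and 59.1% of its exon bases are shared with FSBP on the same strand.

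The Fanconi core complex varied most within a group, from the second largest hypoxia difference of all members to the only gene that was higher. FANCE (ENSG00000112039, GRCh38 chromosome 6, 35452356 to 35467103), the subunit that contacts FANCD2, was at 5.38 FPKM in normoxic and 1.26 in hypoxic WT cells, 0.234 of the normoxia level (log2 change -1.50). In the shRNA libraries it stood at 2.27 and 2.20 FPKM, with an interval that spanned 0. FANCL, the ubiquitin ligase of the complex, was at 10.2, 3.77, 1.34 and 1.65 FPKM in WT normoxia, WT hypoxia, shScr and shALKBH5, with a hypoxia change of -1.23. FANCC, a subunit that binds FANCE, was at 3.65 and 4.07 FPKM in the WT libraries (log2 change 0.12) and at 0.583 and 0.813 FPKM with the shRNAs, with an interval from 1.09 to 1.79. FANCC and FANCE, although neighbours in the complex, thus stood far apart in the hypoxia comparison.

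FANCG, a scaffold subunit, was the most abundant member in 3 of the 4 libraries, at 23.6 and 16.7 FPKM in normoxic and hypoxic WT cells and 9.72 and 7.49 FPKM with shScr and shALKBH5. Its 522 and 429 reads gave a ratio of 0.771, with an interval from 0.677 to 0.877. Relative to all recovered reads, its log2 ratio was -0.19. FANCF, an adaptor subunit, was at 5.73, 3.50, 2.32 and 3.48 FPKM in the order WT normoxia, WT hypoxia, shScr and shALKBH5, with an interval from 1.16 to 1.94. FANCA, a subunit that pairs with FANCG, was at 17.2, 9.62, 0.864 and 1.02 FPKM in the same order. FANCB, the X-linked member, was at 1.81, 0.72, 0.169 and 0.299 FPKM, the last values from 9 and 17 reads. FANCM, a translocase that anchors the complex on DNA, was at 1.18, 1.01, 0.199 and 0.216 FPKM, with a hypoxia change of -0.12. The shALKBH5 intervals of FANCA, FANCB, FANCL and FANCM all spanned 0, and ZNF276 overlaps 23.6% of the FANCA exon bases. VRK2, with 66 and 73 reads, overlaps 18.7% of the FANCL exon bases on the opposite strand, where FANCL held 48 and 63 reads.

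FANCD2, FANCI and the proteins that act after them were lower in hypoxia, with a median log2 change of -0.62 and 0 of 4 past the 2-fold rule. FANCD2, a target of the core complex, was at 12.1, 5.90, 1.16 and 1.17 FPKM in WT normoxia, WT hypoxia, shScr and shALKBH5. Its plain hypoxia ratio was 0.490, and with shALKBH5 the ratio was 1.01 with an interval from 0.800 to 1.27. FANCI, its partner, was at 27.2, 15.2, 1.34 and 1.82 FPKM, with an interval from 1.10 to 1.67. SLX4, a platform for the nucleases that unhook crosslinks, was at 2.0, 1.34, 0.603 and 0.896 FPKM, with an interval from 1.11 to 2.0. BRIP1, a helicase that binds BRCA1, was at 2.15, 1.31, 0.269 and 0.308 FPKM, and its interval spanned 1. All 4 were higher with shALKBH5 by plain FPKM, and intervals clear of 1 were those of FANCI and SLX4.

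Of the mismatch repair genes, MSH6 passed the 2-fold rule in hypoxia. On the deposited FPKM scale, none of the 3 had an interval clear of 0 with shALKBH5. The lower ends of these log2 intervals were -0.12 for MSH6, -0.10 for MSH3 and -0.002 for PMS2. Relative to all recovered reads every log2 ratio was 0.18 higher, which is more than each of these distances from 0. MSH6 (ENSG00000116062, GRCh38 chromosome 2, 47695530 to 47810101), which recognises base mismatches and short loops, was at 23.5 FPKM in normoxic and 10.4 in hypoxic WT cells, a log2 change of -1.10. It was the deepest member in the shRNA table, with 910 reads and 5.57 FPKM with shScr against 980 reads and 5.62 FPKM with shALKBH5. The ratio of 1.01 had the narrowest interval of all members, 0.922 to 1.11, by counting error alone. MSH6 shares 16.2% of its exon bases with FBXO11 on the opposite strand, which held 308 and 501 reads. Without stated use of strand, part of the MSH6 reads is uncertain. MSH3, which recognises larger loops, was at 4.51, 2.97, 1.30 and 1.61 FPKM in WT normoxia, WT hypoxia, shScr and shALKBH5. PMS2, a subunit of the endonuclease that nicks the faulty strand, was at 12.4 and 10.6 FPKM in the WT libraries and 1.98 and 2.53 FPKM with the shRNAs. Its hypoxia change of -0.21 was smaller than that of the median gene. PMS2 has many near-identical copies, of which PMS2CL alone was listed with 247 and 306 reads, so its counts are uncertain.

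MGMT (ENSG00000170430, GRCh38 chromosome 10, 129467184 to 129768007) was listed at 0 FPKM in both WT libraries and had 0 reads in both shRNA libraries. A count of 0 allows up to 3 reads, which is 0.0567 FPKM with shScr and 0.0532 with shALKBH5. It was the only member listed at 0 in all 4 libraries. A listed 0 need not mean an absent transcript, since the end joining gene NHEJ1 had 0 reads in both shRNA libraries but 9.26 and 8.29 FPKM in the WT table. As background, a CpG island at the MGMT start is methylated in a part of glioblastomas. Its promoter window from RefSeq (GRCh38.p14, chr10:129466991-129467290, plus strand) is shown because it covers the gene start at that island; capitals mark each CG. It holds 45 CG dinucleotides, more than 95.5% of 22199 RefSeq promoter windows, whose median was 21. Methylation was not measured in these libraries.
MGMT: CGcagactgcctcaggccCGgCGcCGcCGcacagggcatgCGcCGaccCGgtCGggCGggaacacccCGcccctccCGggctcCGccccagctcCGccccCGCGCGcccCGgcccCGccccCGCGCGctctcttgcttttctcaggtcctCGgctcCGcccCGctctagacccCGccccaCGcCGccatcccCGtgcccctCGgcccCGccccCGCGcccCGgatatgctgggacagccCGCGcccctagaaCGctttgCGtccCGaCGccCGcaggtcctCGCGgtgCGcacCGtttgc

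Since the members were lower together in hypoxia, their RefSeq promoter windows (GRCh38.p14, 250 bases before to 50 after the start) were searched for 4 short words on both strands. Windows were held for 36 of the 39 genes, not for NBN, RAD54B and FANCI. E2F words (TTTCCCGC, TTTGGCGC, TTTCGCGC or TTTGCCGC) were present in 8 of 36 members, 22.2%, against 5.40% of 15843 protein-coding genes and 7.05% of the 8822 of these past the WT filter. Members with and without an E2F word had nearly the same median hypoxia change, -0.85 over 8 genes and -0.84 over 26. Over all genes past the WT filter, the median was -0.46 for 622 genes with such a word and -0.35 for 8200 without. The hypoxia response word ACGTG was in 10 of 36 members, 27.8%, against 28.5% of all genes, and CCAAT in 44.4% against 42.1%. The word TTTGAA, the core of the element used by late cell cycle genes, was in 8.33% against 15.8%. Words may overlap each other, and a match is a string in this window, not a bound site. Each E2F word holds a CG, and the shares were not matched for the CG content of the windows. The part of these words in the hypoxia change was not tested. The 8 E2F matches are printed with their surroundings, 40 bases each on the strand of the gene, with the word in capitals; a word in reverse complement starts with GC.
EXO1 (chr1:241848192-241848231, plus strand): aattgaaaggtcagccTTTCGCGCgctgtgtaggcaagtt
XRCC2 (chr7:152676097-152676136, minus strand): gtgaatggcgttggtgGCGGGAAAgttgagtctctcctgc
FANCA (chr16:89816796-89816835, minus strand): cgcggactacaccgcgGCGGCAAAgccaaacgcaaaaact
FANCC (chr9:95317858-95317897, minus strand): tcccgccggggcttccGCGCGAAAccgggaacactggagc
FANCD2 (chr3:10026419-10026458, plus strand): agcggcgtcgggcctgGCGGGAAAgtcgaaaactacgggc
MSH3 (chr5:80654529-80654568, plus strand): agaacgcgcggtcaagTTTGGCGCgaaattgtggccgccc
MSH6 (chr2:47783132-47783171, plus strand): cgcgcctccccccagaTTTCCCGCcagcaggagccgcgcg
PMS2 (chr7:6009126-6009165, minus strand): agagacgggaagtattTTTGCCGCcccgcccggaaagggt

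The place of the word relative to the RefSeq start is described here for each of these members. EXO1, XRCC2 and MSH6, each at least 2-fold lower in hypoxia, hold it from 4 to 22 bases downstream of the RefSeq start. In FANCD2, with a hypoxia change of -0.92, it begins 2 bases upstream. FANCC, the member that was higher, holds 2 such words in its window, the printed one 172 bases upstream. MSH3, with a change of -0.47, also holds 2, the printed one 107 bases upstream. FANCA holds the word 172 bases upstream, as FANCC does, with a change of -0.78. In PMS2, with a change of -0.21, it lies 43 bases upstream. Whether the place of the word goes with the hypoxia change was not tested.

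Other repair and cell cycle genes were also mostly lower in hypoxia, as was the whole table, with its median log2 change of -0.35 and 14.7% of genes at least 2-fold lower. Of 30 further recombination and Fanconi genes, 9 were at least 2-fold lower and 0 higher, with a median log2 change of -0.70; SFR1, PSMC3IP and DNA2 differed most, at -1.44, -1.39 and -1.30. Of 14 further mismatch repair and gap-filling genes, 4 were lower, with a median of -0.60, led by the clamp loader genes RFC3 (-1.53) and RFC4 (-1.28). End joining, which seals breaks without a template, had 4 of 13 lower and a median of -0.85, led by the strand-break sensor gene PARP1 (-1.52) and the ligase genes LIG3 (-1.43) and LIG4 (-1.38). Base excision and direct reversal genes had 4 of 13 lower and 1 higher, with a median of -0.82 and 11 of 13 below 0. ALKBH2, a DNA demethylase of the ALKBH5 family, was at -1.59, whereas MPG, the glycosylase for alkylated bases, was at 1.13 and is named as the gene at least 2-fold higher. Nucleotide excision had 2 of 13 lower, near the share of all genes, and 1 higher, the damage sensor gene DDB2 at 1.24, with a median of -0.68. S phase and mitotic genes, used here as a gauge of cycling, had 12 of 25 lower and a median of -0.99, led by CCNE1 at -1.84, MCM10 at -1.72 and MCM3 at -1.42. Of the E2F, DREAM and related factors, 3 of 12 were lower, namely LIN52 (-1.18), RBL1 (-1.15) and E2F4 (-1.01). The medians of these 7 lists lay between -0.60 and -0.99, that of the E2F, DREAM and related factors at -0.80. The part of cell cycling in the members' values was not tested.

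With shALKBH5 the same 7 lists lay on both sides of 0. The median log2 ratio without a constant was 0.26 in the E2F, DREAM and related factors and 0.24 in the other mismatch repair genes, near the 0.30 of the members, and 0.07 in end joining genes. It was -0.20 in nucleotide excision genes and -0.21 in base excision and direct reversal genes. The other recombination and Fanconi genes also had a median of -0.21, with 7 of 30 intervals above 0 and 12 below, where 33.2% of all genes lay above and 35.2% below. RPA2, a subunit of the protein that coats exposed strands, was at least 2-fold lower, from 16.7 to 6.69 FPKM, while SFR1 went from 1.45 to 3.55 FPKM. The S phase and mitotic genes had a median of -0.22, with 5 of 24 intervals above 0 and 13 below, and PLK1, a mitotic kinase gene, went from 16.5 to 6.11 FPKM. The E2F, DREAM and related factors had 4 of 12 intervals above 0 and 3 below. The other mismatch repair genes had 4 of 14 above and 5 below, unlike the members despite the near medians. The members had 15 of 36 above and 2 below. Intervals narrow with reads, so these shares compare lists of unlike depth, and no test of the difference was made.

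**Figure D4:**
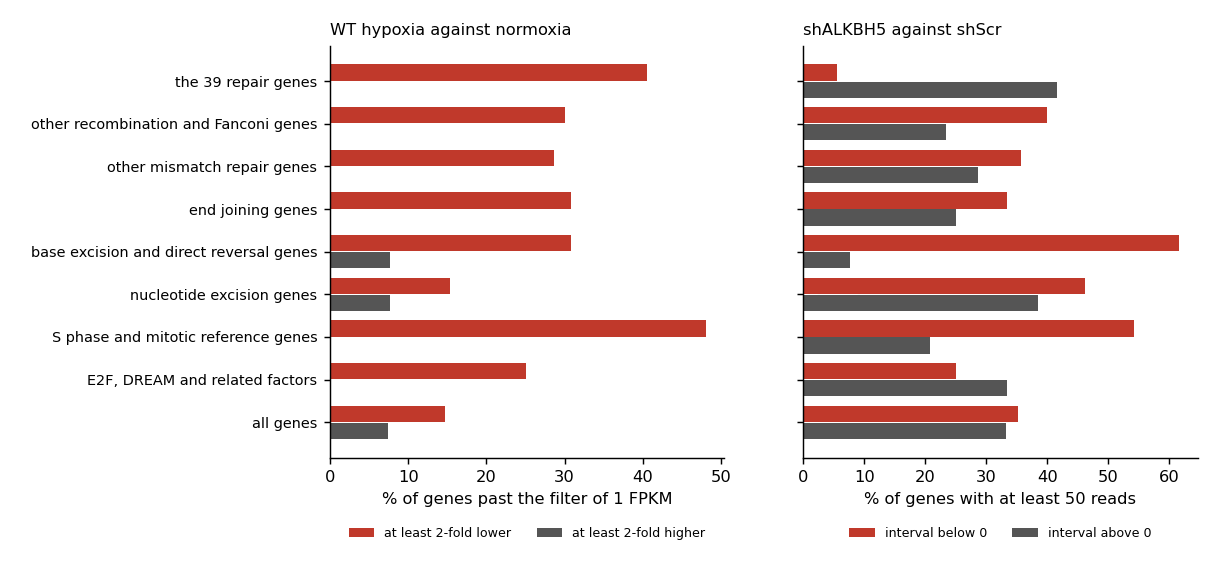
Share of genes in each list past the 2-fold rule in WT hypoxia against normoxia (left, genes past 1 FPKM) and with a counting interval clear of 0 for shALKBH5 against shScr (right, genes with at least 50 reads). The repair genes show 15 of 37 lower in hypoxia on the left, and 15 of 36 above 0 against 2 of 36 below 0 on the right. Of all genes, 14.7% were lower on the left, and 33.2% lay above 0 and 35.2% below 0 on the right.

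Gene by gene, the 2 comparisons did not follow each other among the members. The comparisons use 4 different libraries and share no sample. Across the 38 detected genes, Spearman's rho between the log2 ratio in hypoxia and that with shALKBH5 was 0.06, given as a description, since the points share their libraries. Over 10403 genes measured in both tables it was -0.11. Of the 15 members at least 2-fold lower in hypoxia, 4 had an interval above 0 with shALKBH5, namely RBBP8, BLM, EXO1 and BRCA1, and 0 below. Of the other 23 detected members, 11 lay above and 3 below.

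**Figure D5:**
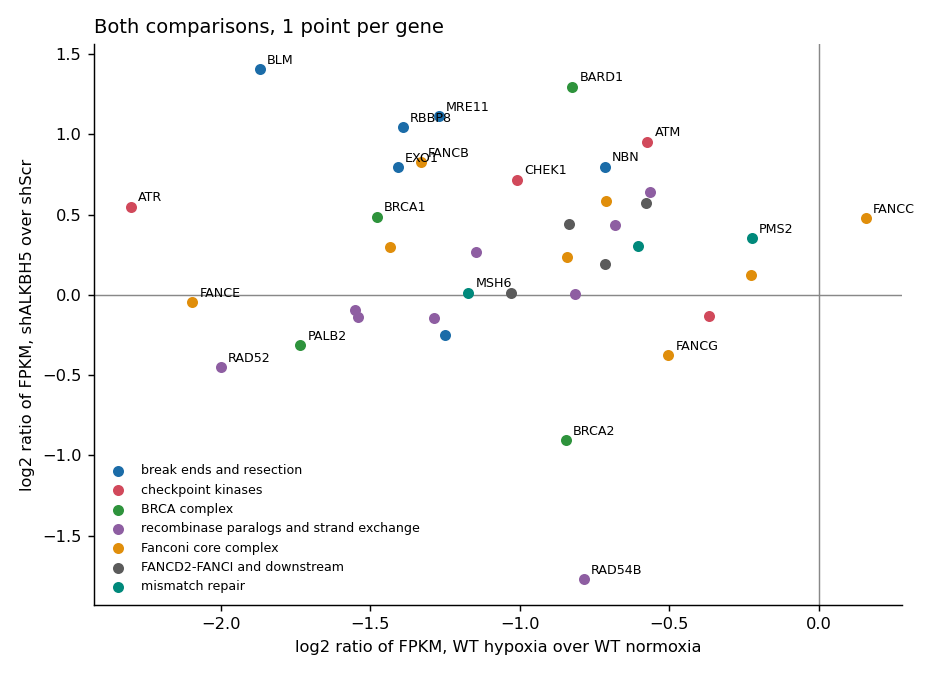
Log2 ratio of FPKM in WT hypoxia over WT normoxia (horizontal) against that of shALKBH5 over shScr (vertical), 1 point per repair gene, coloured by role. BLM, RBBP8, MRE11 and EXO1 lie at the upper left, lower in hypoxia and higher with shALKBH5, and RAD54B lies lowest at -1.77.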

How the data were processed

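RNA from 4 U87 cultures was sequenced, 1 library per group, grouped by sample title. The authors deposited FPKM values in 2 tables, one for the WT libraries, rounded and without lengths, and one for the shRNA libraries with gene lengths. The submitters' processing notes name hg19, but all 58735 rows of the shRNA table match GENCODE release 29 in start and end, so coordinates are given as GRCh38. No source used here names the aligner, the counter or whether strand was used. In the WT table, 12 symbols turned into dates and 53 bare numbers were left out, and where symbols repeated in the shRNA table the row with the highest mean was kept, which dropped 1566 rows.

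From these values, FPKM times gene length gave whole reads within 0.01 for 100% of values in both shRNA libraries. The deposited FPKM were divided by 83.2% of the recovered total in shScr and 94.5% in shALKBH5. Changes used log2(FPKM + 1), a filter of 1 FPKM and a 2-fold size rule, with no test, and the arithmetic and the intervals were tested on simulated data. Every member was reported, and up to 3 genes of each other list were named by largest change. MPG, FAN1, FIGNL1, BABAM1, NHEJ1 and the genes overlapping members were named after their values were seen. The members and lists were chosen with earlier results of these data known. Alternatives were a constant of 0.1, filters, centring, TPM, summed rows, other folds, total reads and a minimum of 50 reads. Intervals came from scipy 1.17.1, tables from pandas 2.3.3 with numpy 2.4.6 under Python 3.11.15, and plots from matplotlib 3.10.9.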

Additional observations from a re-analysis of the deposited data

How the results depend on the processing

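With 1 library per group, the culture-to-culture spread is unknown. No paired analysis was possible because each group held 1 library. The count of 15 of 37 members at least 2-fold lower in hypoxia became 3 when centred on the median gene, against 5.73% of all genes. It was 25 at 1.5-fold, against 35.3%, and 0 at 3-fold, against 3.08%. Under the other settings tried it lay between 10 (of 21 past a filter of 5 FPKM) and 19 (of 37 without a constant). There, 8.69% to 20.6% of all genes were lower. The count of members higher was 0 in each setting, against 3.35% to 13.2% of all genes. The median hypoxia change of -0.78 became -1.0 with a constant of 0.1 FPKM, -0.92 with a filter of 5 FPKM, -0.43 when centred, -0.95 in TPM and -1.01 without a constant. With shALKBH5, the count of 0 of 18 members at least 2-fold higher became 1 of 18 with a constant of 0.1 FPKM, against 4.03% of all genes. It was 1 of 31 in TPM, against 8.39%, and 1 of 18 at 1.5-fold, against 8.49%. Without a constant at 50 reads it was 4 of 36, against 5.51%, and 11.2% of genes with like reads and exon length. The median change of 0.17 became 0.27 with a constant of 0.1, 0.15 without a filter, -0.16 for the 2 members past 5 FPKM, 0.21 when centred, 0.50 in TPM, 0.27 on total reads and 0.30 without a constant. The cause was not tested. Among single members, centring turned the hypoxia direction of ATM, CHEK2, FANCM and PMS2. TPM turned the shALKBH5 direction of 6 members, and total reads that of 5. Depth limits the shRNA comparison, since members held from 21 to 1890 reads over both libraries. The setting without a constant was chosen after seeing the data.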

Other observations

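Set across the separately normalised tables, the 2 hypoxic control libraries ranked the repair genes alike only in part. Over the 38 detected members, Spearman's rho of FPKM between WT hypoxia and shScr was 0.67, against 0.91 between the WT libraries and 0.95 between the shRNA libraries. Among 18217 shared symbols, the median member stood at percentile 55.1 in WT hypoxia and 47.2 with shScr. RAD51C was second among the members in WT hypoxia, at 15.99 FPKM, and at 1.32 FPKM with shScr it ranked 12. FANCI went from 15.2 to 1.34 FPKM and from rank 3 to 10. FANCE moved the other way, from 1.26 to 2.27 FPKM and from rank 30 to 4. The shRNA table divides by the length of all annotated exons of a gene, which equalled GENCODE's for all 39 members, and the lengths behind the WT table are unknown, so these shifts were not resolved further.

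Outside the members, several genes of neighbouring pathways differed with shALKBH5 on the scale without a constant. FAN1, a nuclease for crosslinks, went from 0.912 to 1.87 FPKM, and FIGNL1, an ATPase of recombination, from 0.615 to 1.42 FPKM. BABAM1, a subunit of the BRCA1-A complex, went from 27.3 to 15.6 FPKM and RFWD3, a ubiquitin ligase of crosslink repair, from 5.94 to 2.79 FPKM. These 4 were chosen after their values were seen.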
